A study of Homo sapiens
Mus musculus and Homo sapiens with 2 samples.

Results

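The 30 genes described here make cholesterol and fatty acids or control that synthesis. They were chosen by symbol in the A549 gene annotation, and all 30 were found among its 43167 genes. By role, 7 act in the mevalonate pathway (ACAT2, HMGCS1, MVK, PMVK, MVD, IDI1 and FDPS). A further 11 act in the sterol branch (FDFT1, SQLE, LSS, CYP51A1, TM7SF2, MSMO1, NSDHL, HSD17B7, EBP, SC5D and DHCR7). The sterol sensing and transport genes are 6 (SREBF1, SREBF2, SCAP, INSIG1, INSIG2 and STARD4), and 6 build or desaturate fatty acids (ACLY, ACACA, FASN, SCD, FADS1 and FADS2).

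The mevalonate pathway joins acetyl-CoA units into isoprenoids, and the sterol branch closes squalene into lanosterol and trims it to cholesterol. Fatty acid synthesis draws on the same acetyl-CoA, which ACLY releases from citrate. Transcription of many of these genes is driven by the SREBP factors. SCAP escorts these factors out of the endoplasmic reticulum when sterols are low, and the INSIG proteins hold them there when sterols are high.

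The study measured RNA in single cells by sci-fate, which separates RNA made during a short label from older RNA. A549 is a human lung adenocarcinoma line. Its cultures were kept in dexamethasone, a steroid that activates the glucocorticoid receptor, for 0, 2, 4, 6, 8 or 10 h. The treatment protocol gives 100 nM, whereas the sample's label gives 101 nM, and control cells received the same volume of ethanol. All A549 cells took up 200 µM S4U, a labelled uridine, for the last 2 h, so the 0 h culture was labelled as well. A second sample was a mixture of human HEK293T cells (embryonic kidney line) and mouse NIH/3T3 cells (fibroblast line). Its cells were labelled with 200 µM S4U for 6 h or not labelled, and either group had iodoacetamide or no chemical treatment. Only iodoacetamide-treated cells are used below. Of these, 913 HEK293T and 425 NIH/3T3 cells were labelled, and 1025 and 559 were not. The mixture's treatment label repeats the dexamethasone series, but the protocol describes dexamethasone for A549 only.

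The A549 file held 7404 cells, with 1045 to 1446 cells at each time. Summed over cells, each time had 28870594 to 43084614 whole counts, of which 5865326 to 9718958 were called new (20.3 to 22.6%). Each time is 1 culture, so time and culture cannot be told apart, and cells were never treated as replicates. The glucocorticoid-induced genes TSC22D3, FKBP5 and PER1 together stood at 56.1 CPM (counts scaled to the library total) of whole RNA at 0 h and at 295.9 to 816.8 in the treated cultures. A list of 8 A549 epithelial genes summed to 19099 CPM at 0 h and 19489 to 26005 in treated cultures, whose part in the results below was not tested. The sum hides members that went opposite ways. Their fitted log2 fold changes against 0 h ran from -0.14 (AKR1B10) to 0.66 (KRT8) in whole RNA. In new RNA the range was -0.85 (KRT19) to 1.37 (KRT8). Fibroblast markers summed to 8.63 to 16.6 CPM over the 6 cultures, with 4 of 7 under 1 CPM, and blood cell markers to 6.85 to 10.3, with 4 of 5 under 1.

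Levels below are CPM of the same kind of RNA in the same culture, after TMM scaling. A new level is therefore relative to all new counts and a whole level to all whole counts, and the 2 scales are not compared. Pre-existing RNA is whole minus new, that is, all counts not called new. In the 2 h culture the label spanned the whole treatment, so its pre-existing RNA stands for RNA made before dexamethasone. The tests that use pre-existing RNA still count that culture as treated, except where it is left out. Summed over a culture, less RNA in each cell and fewer cells with that RNA cannot be told apart. All 30 genes passed the filter on low counts in every test.

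The first question was how RNA made in 2 h differed between the 0 h culture and the 5 treated cultures. Of the 30 genes, 1 rose in new RNA (HMGCS1) and 2 fell (SCD and SREBF1), by edgeR's quasi-likelihood test with Benjamini-Hochberg adjustment at 0.05. Over all 17507 genes tested, 3.82% rose and 2.18% fell. An unadjusted edgeR p under 0.05 was found for 26.7% of the 30 genes and 18.1% of all genes. The median log2 fold change of the 30 genes was 0.033, beside 0.010 over all genes tested, and 56.7% of them had a positive sign, beside 51.5%. The fit has 1 culture at 0 h and borrows its spread from the 5 treated cultures, whose differences include change over time.

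**Figure D1:**
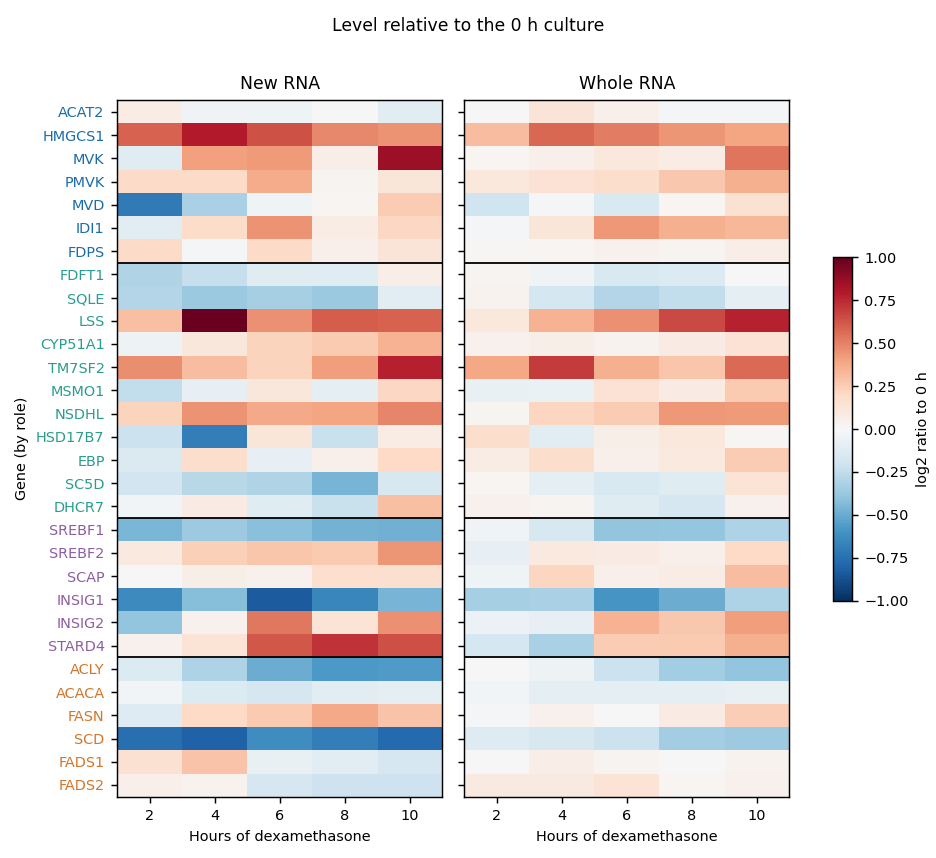
Log2 ratio of each gene's level to its 0 h level, in new RNA (left) and whole RNA (right), at 2, 4, 6, 8 and 10 h of dexamethasone, 1 culture a time. Red is above and blue below the 0 h culture; black lines divide the 4 roles, whose gene names are coloured. HMGCS1 is red and SCD, SREBF1 and INSIG1 are blue in new RNA at all 5 treated times.

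HMGCS1 (ENSG00000112972.10), the synthase that makes HMG-CoA, was the mevalonate gene that changed. Its new level was 197.5 at 0 h, then 296.7, 341.7, 307.4, 275.7 and 269.6 at 2, 4, 6, 8 and 10 h. All 5 treated cultures lay above the 0 h culture, with the highest at 4 h, where the ratio to 0 h was 1.73 (95% counting interval 1.62 to 1.85). The fitted log2 fold change was 0.59 ± 0.13 (SE; edgeR adjusted p = 0.0312). In whole RNA the level went from 134.4 to 166.1, 200.5, 192.0, 182.3 and 176.6, again without overlap. That whole-RNA fold, 0.45 ± 0.10 on the log2 scale, missed the threshold with edgeR (adjusted p = 0.125) and passed with DESeq2 (adjusted p = 0.0137). It also passed in edgeR without the 2 h culture (adjusted p = 0.0115), as did the pre-existing RNA (adjusted p = 0.0179). Without that culture, calls over all genes went from 138 rising and 63 falling to 931 and 669 in whole RNA. In pre-existing RNA they went from 11 and 13 to 463 and 304. The new-RNA call was lost without the 6 h culture (adjusted p = 0.0883) and in cells with a doublet score under 0.1 (adjusted p = 0.0558). Without the 2 h culture, new HMGCS1 RNA fell over the remaining treated times (adjusted p = 0.0053), which it did not over all 5 (slope -0.030 log2 per hour, adjusted p = 0.245).

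The other 6 mevalonate genes did not pass against 0 h. New IDI1, the isomerase of the isoprenoid building block, was 92.0 at 0 h and 85.2, 104.4, 125.9, 96.7 and 106.3 at the treated times, so the groups overlapped. PMVK, which adds the second phosphate to mevalonate, was 13.5 at 0 h and 13.8 to 17.5 in the treated cultures. ACAT2, FDPS and MVD, which act at the start, end and middle of the pathway, had log2 fold changes of -0.021, 0.11 and -0.11 in new RNA. MVK had 40 to 93 new counts a culture and a log2 fold change of 0.37 ± 0.35 (SE). Reads of FDPS could be shared with its pseudogenes in the same annotation, and those of ACAT2 with a neighbouring gene that overlaps it, since no source used here states the counting rule.

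None of the 11 sterol branch genes passed in new RNA against 0 h (3 of 11 had an unadjusted p under 0.05, by edgeR, as did 18.1% of all genes; DESeq2 also called none). SQLE, the squalene epoxidase at the head of sterol synthesis, was 55.7 at 0 h and 45.5, 43.1, 44.3, 43.0 and 51.5 at the treated times. Every treated culture was lower, but the log2 fold change of -0.29 ± 0.12 gave an edgeR adjusted p of 0.256. The opposite order held for LSS and NSDHL. LSS, which closes the sterol rings, was 8.27 at 0 h and 10.2 to 16.4 after it, a log2 fold change of 0.59 ± 0.26 (edgeR adjusted p = 0.274) that rests on 60 to 109 new counts a culture. NSDHL, a dehydrogenase that helps remove methyl groups, was 25.1 at 0 h and 29.2 to 35.1 after it (0.39 ± 0.14, adjusted p = 0.178). CYP51A1 and TM7SF2, a sterol reductase with few counts, had log2 fold changes of 0.19 ± 0.15 and 0.45 ± 0.41. FDFT1, MSMO1, HSD17B7, EBP, SC5D and DHCR7 ranged from -0.28 to 0.044 on the log2 scale, with no call. HSD17B7 has a pseudogene in the annotation, so its 24 to 69 new counts a culture are uncertain.

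Of the 6 sensing and transport genes, SREBF1 fell in new RNA. SREBF1 (ENSG00000072310.12), the gene of the SREBP factor that mainly drives fatty acid synthesis, was 58.2 at 0 h and 42.3, 45.2, 43.5, 41.9 and 41.8 at 2 to 10 h. The treated cultures were close to each other (42.9 ± 1.42, SD, n = 5) and all below the 0 h culture. The fitted log2 fold change was -0.44 ± 0.10 (edgeR adjusted p = 0.0382). The call was lost with DESeq2 (adjusted p = 0.11), with no filter on low counts (0.058) and without the 4, 6, 8 or 10 h culture (0.0558, 0.0914, 0.0936 and 0.0711). In whole RNA, SREBF1 was 70.6 at 0 h and 69.0, 63.3, 53.7, 54.0 and 57.1 after it, lower at each time and nearest to the 0 h value at 2 h.

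INSIG1 (ENSG00000186480.8), itself a target of the SREBP factors, was 43.0 in new RNA at 0 h and 27.7, 32.0, 24.2, 27.3 and 31.1 after it. All treated cultures were lower, with ratios to 0 h of 0.562 to 0.744, yet the log2 fold change of -0.60 ± 0.16 narrowly missed the threshold (edgeR adjusted p = 0.0559). It passed with no filter on low counts (adjusted p = 0.0196) and without the 2 h culture (0.0318). Without that culture, calls in new RNA over all genes went from 669 rising and 381 falling to 1176 and 846. Whole INSIG1 RNA was 15.4 at 0 h and 10.2 to 12.4 after it. For INSIG2, the second retention protein, the new level was 24.4 at 0 h and 18.5, 25.2, 35.2, 26.8 and 33.5 after it, on both sides of the control. SREBF2, the gene of the SREBP factor that mainly drives sterol synthesis, was 57.5 at 0 h and 61.7 to 78.2 after it, without overlap (0.27 ± 0.13, adjusted p = 0.327). STARD4, a carrier of cholesterol between membranes, was 14.3 at 0 h and 14.8, 15.7, 22.0, 23.7 and 22.4 after it (0.47 ± 0.27, adjusted p = 0.427). SCAP stayed within 30.6 to 34.5 in all 6 cultures.

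Among the fatty acid genes, SCD fell most. SCD (ENSG00000099194.5) encodes the desaturase that makes oleate from stearate. Its new level was 66.9 at 0 h and 39.7, 38.2, 43.5, 41.5 and 38.9 at 2, 4, 6, 8 and 10 h. The drop was present at 2 h, where the ratio to 0 h was 0.593 (95% counting interval 0.511 to 0.688), and the highest treated culture, at 6 h, stayed well below the control. The log2 fold change was -0.73 ± 0.11 (edgeR adjusted p = 0.0045), and the call held under all 9 alternatives run. Whole SCD RNA went down in smaller steps, from 131.0 to 120.1, 117.2, 112.8, 103.0 and 102.0, and its fold against 0 h did not pass (-0.24 ± 0.10, adjusted p = 0.377).

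ACLY (ENSG00000131473.12) also had lower new RNA at every treated time, with 284.2 at 0 h and 257.9, 229.3, 202.0, 190.4 and 191.5 after it. Its mean over treated times did not pass against 0 h (-0.41 ± 0.15, edgeR adjusted p = 0.188), but did without the 2 h culture (0.0117). Calls in new RNA over all genes were also more frequent in that setting, as given for INSIG1. ACACA, which commits acetyl-CoA to fatty acid synthesis, was 492.9 at 0 h and 439.5 to 483.8 after it, a log2 fold change of -0.11 ± 0.087. FASN, the synthase itself, was 49.9 at 0 h and 45.5, 57.3, 60.0, 65.0 and 60.8 after it, on both sides of the control. The polyunsaturated fatty acid desaturases FADS1 and FADS2 had log2 fold changes of 0.023 and -0.096 and overlapped with the control.

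**Figure D2:**
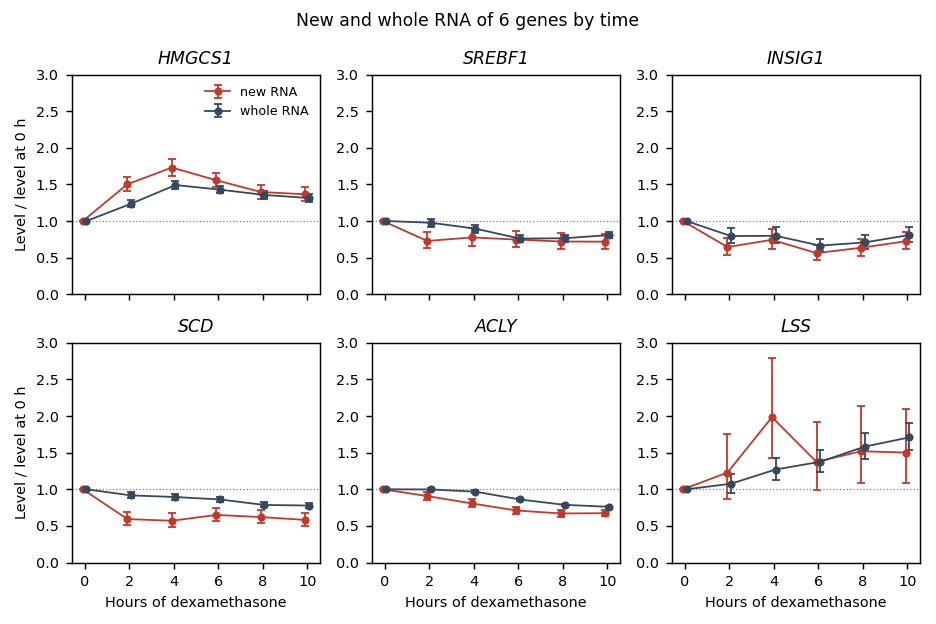
Level divided by the 0 h level against hours of dexamethasone for HMGCS1, SREBF1, INSIG1, SCD, ACLY and LSS, in new RNA (red) and whole RNA (dark blue), 1 culture a time; bars are 95% counting intervals of the ratio and the dotted line is 1. New SCD RNA is at 0.570 to 0.650 from 2 h on, while whole SCD RNA goes down to 0.778 by 10 h.

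In whole RNA none of the 30 genes passed against 0 h by edgeR (4, or 13.3%, had an unadjusted p under 0.05, as did 12.8% of all genes), beside 0.603% of all 22894 genes that rose and 0.275% that fell; DESeq2 called HMGCS1 alone. Pre-existing RNA gave no call with edgeR or DESeq2 (2 genes, or 6.67%, had an unadjusted p under 0.05, as did 8.00% of all genes), beside 0.0533% of all 20624 genes that rose and 0.063% that fell. The fit of pre-existing RNA counted the 2 h culture as treated, although its pre-existing RNA stands for RNA made before dexamethasone. Levels in whole RNA lay above the 0 h culture at all 5 treated times for 10 genes (HMGCS1, MVK, PMVK, FDPS, LSS, CYP51A1, TM7SF2, NSDHL, EBP and FADS2), or 33.3% of the list, beside 22.7% of all genes tested. They lay below it for 5 genes (SREBF1, INSIG1, ACLY, ACACA and SCD), beside 22.4%. In new RNA, 7 genes were above (HMGCS1, PMVK, LSS, TM7SF2, NSDHL, SREBF2 and STARD4), beside 24.9% of all genes, and 7 below (SQLE, SC5D, SREBF1, INSIG1, ACLY, ACACA and SCD), beside 24.1%. These shares of the list, 23.3% each way in new RNA, are near those of all genes.

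A test of new against pre-existing RNA within each culture asked whether the dexamethasone difference was larger in new RNA. None of the 30 genes passed with edgeR, as none of the 22440 genes did (0%), and none passed with DESeq2. At an unadjusted p under 0.05 there were 3 (10.0%, beside 5.42% of all genes): SCD (-0.51 ± 0.14 on the log2 scale), STARD4 (0.62 ± 0.25) and SREBF2 (0.30 ± 0.13). For SCD the separate folds were -0.73 in new and -0.19 in pre-existing RNA, and their difference had an adjusted p of 0.658. The fold of SCD in new RNA is therefore not shown to differ from its fold in pre-existing RNA after adjustment.

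**Figure D3:**
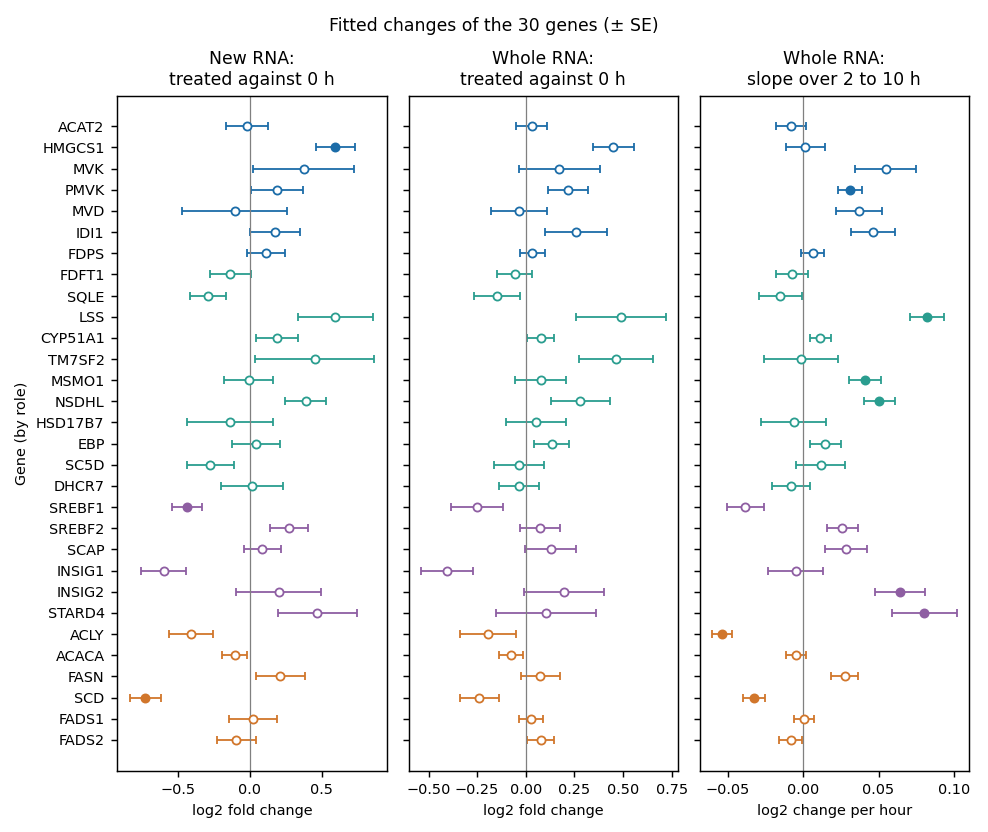
Fitted log2 fold change of the 5 treated cultures against the 0 h culture in new RNA (left) and whole RNA (middle), and fitted log2 change per hour over the 5 treated cultures in whole RNA (right), for each of the 30 genes, coloured by role. Bars are ± SE and filled points passed an edgeR adjusted p of 0.05: 3 genes on the left, none in the middle, 8 on the right.

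A slope over the 5 treated times, which leaves the 0 h culture out, asked which genes kept changing under dexamethasone. In whole RNA, 6 of the 30 genes rose with time (LSS, NSDHL, MSMO1, PMVK, INSIG2 and STARD4) and 2 fell (ACLY and SCD). These are 20.0% and 6.67% of the list, and over all 21493 genes tested, 6.1% rose and 6.53% fell. An unadjusted edgeR p under 0.05 was found for 46.7% of the list and 25.1% of all genes. Neither here nor in the other shares of calls were genes matched on level, and a call can depend on level. The genes that rose were 3 of 11 in the sterol branch, 1 of 7 in the mevalonate pathway and 2 of 6 in sensing and transport, and both that fell were fatty acid genes.

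LSS (ENSG00000160285.10) had the steepest rise of the 30, by 0.082 ± 0.011 log2 per hour (edgeR adjusted p = 0.0017). Its whole level was 15.3 at 0 h and 16.4, 19.4, 21.0, 24.1 and 26.0 at 2, 4, 6, 8 and 10 h. Each later culture was higher than the one before, and the ratio at 10 h to 0 h was 1.71 (95% counting interval 1.54 to 1.90). NSDHL rose from 28.0 at 2 h to 36.9 at 10 h (0.051 ± 0.010 log2 per hour, adjusted p = 0.013), and lost its call without the 2 h culture (0.114) or the 8 h culture (0.0549). The remaining 4 also lost their call without the 2, 4, 8 or 10 h culture. Their slopes and adjusted p ranges in those settings were 0.031 for PMVK (0.0736 to 0.233), 0.041 for MSMO1, a methylsterol oxidase (0.0638 to 0.247), 0.064 for INSIG2 (0.0845 to 0.125) and 0.080 for STARD4 (0.0762 to 0.121). LSS kept its call under all 9 alternatives run.

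IDI1 missed the threshold (0.046 ± 0.014 log2 per hour, edgeR adjusted p = 0.0696) and passed with DESeq2 (0.0294), with no filter on low counts (0.00599), in cells with a low doublet score (0.0441) and without the 6 h or the 10 h culture (0.0133 and 0.0328). MSMO1 and STARD4 lost their calls in cells with a low doublet score (0.0602 and 0.0878). Whole CYP51A1, the lanosterol demethylase, moved little, from 119.6 at 2 h to 128.2 at 10 h.

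ACLY fell by 0.054 ± 0.0068 log2 per hour in whole RNA (edgeR adjusted p = 0.0013), a call that held under all 9 alternatives run. Its whole level was 537.9 at 0 h and 536.8, 520.4, 463.1, 423.8 and 409.1 after it, so the 2 h culture lay within counting error of the control and each later one was lower than the one before. SCD fell by 0.033 ± 0.0074 log2 per hour (adjusted p = 0.0185), and lost its call without the 2, 8 or 10 h culture (0.0588, 0.0835 and 0.0791). SREBF1 had a slope of -0.038 ± 0.012 (adjusted p = 0.0793), which passed without the 6 h culture (0.0456), without the 10 h culture (0.0193) and with no filter on low counts (0.0203). FASN had a slope of 0.027 ± 0.0088 (adjusted p = 0.0781), with 134.4 at 2 h and 160.1 at 10 h, and passed with no filter (0.0408).

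In new RNA, 1 of the 30 genes rose over the treated times and 1 fell, beside 3.55% and 4.15% of all 16366 genes. An unadjusted edgeR p under 0.05 was found for 40.0% of the 30 and 21.5% of all genes. New ACLY RNA fell by 0.056 ± 0.012 log2 per hour (edgeR adjusted p = 0.0129; 0.0664 without the 2 h culture and 0.0821 without the 8 h culture). New CYP51A1 RNA rose by 0.048 ± 0.013 (adjusted p = 0.0446), from 55.6 at 2 h to 62.5, 67.4, 69.2 and 73.5. That call was lost in 8 of the 9 alternatives run (adjusted p 0.0578 to 0.267) and held with RLE scaling. New SCD RNA had a slope of 0.0027 ± 0.017, level after its first step. STARD4 and INSIG2 had slopes of 0.086 and 0.085, with adjusted p of 0.0564 and 0.114. New FADS1 RNA had a slope of -0.052 (adjusted p = 0.0585), which passed without the 2 h culture (0.022) and with no filter (0.0206).

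A further 57 genes of the same pathways were listed as neighbours of these 30. Of the 57, 18 passed in at least 1 of the first 5 tests, a larger share than the 15.7% of all 22899 genes. In new RNA against 0 h, 3 of 56 tested rose and 3 fell (5.36% each), beside 3.82% and 2.18% of all genes tested. The genes that rose were ACSL1 and ACSL3, which activate long-chain fatty acids, and ACACB, the mitochondrial acetyl-CoA carboxylase. New ACSL1 was 18.9 at 0 h and 52.1, 93.2, 110, 112 and 115 after it (2.36 ± 0.42, edgeR adjusted p = 0.0106). New ACACB was 37.9 at 0 h and 69.8 to 98.0 after it (1.20 ± 0.18, adjusted p = 0.0041), and new ACSL3 was 209.9 and 405.4 to 499.6 (1.12 ± 0.12, adjusted p = 9.4e-04). Their fitted folds in new RNA were larger than that of any of the 30 synthesis genes, but they were named by passing and by size of fold. That order therefore says nothing about the 2 lists. The median log2 fold change in new RNA was 0.020 over the 56 genes and 0.033 over the 30.

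The 3 that fell were MYLIP, TMEM97 and MID1IP1. MYLIP, a ubiquitin ligase induced by sterol-sensing LXR, was 27.3 at 0 h and 14.1 to 16.1 after it (-0.86 ± 0.14, edgeR adjusted p = 0.0077). TMEM97, a membrane protein of sterol trafficking, was 98.9 and 56.0 to 75.9 (-0.61 ± 0.14, adjusted p = 0.0393), and lost its call without the 4, 6, 8 or 10 h culture (0.0619 to 0.0999). MID1IP1, which promotes polymerisation of acetyl-CoA carboxylase, was 99.7 and 65.2 to 76.1 (-0.49 ± 0.11, adjusted p = 0.034), and lost it without the 6 or 8 h culture (0.0819 and 0.071).

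Over the treated times, 10 of these 56 genes rose and 3 fell in whole RNA (17.9% and 5.36%), beside 6.1% and 6.53% of all genes tested. Whole FADS3, of the desaturase family, went from 23.9 at 2 h to 41.1 at 10 h (0.10 ± 0.013 log2 per hour, edgeR adjusted p = 0.0012). ELOVL5, an elongase, rose by 0.053 ± 0.0079 (adjusted p = 0.0028), from 178.0 to 242.9. ACSS2, which makes acetyl-CoA from acetate, rose by 0.059 (adjusted p = 0.0151; 0.117, 0.0641 and 0.0565 without the 2, 8 and 10 h culture). C14orf1, a sterol enzyme scaffold, rose by 0.049 (adjusted p = 0.0154; 0.0598 without the 2 h and 0.211 without the 10 h culture).

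The new share, the percentage of a gene's whole counts that were called new, differed widely among the 30 genes. Over all 6 cultures it ran from 6.03% for MVD to 53.1% for INSIG1, with a median of 14.2%. Over the 11527 genes with at least 1000 whole counts the median was 26.3%, and 8 of the 30 lay above it. That floor was not applied to the 30 genes, and HSD17B7, among the 8, had 972 whole counts. By role, the medians were 12.2% for the mevalonate pathway, 13.99% for the sterol branch, 33.7% for sensing and transport and 8.39% for fatty acid genes. The share depends on a gene's labelled uridines within the reads and on intronic reads as well as on how fast its RNA is made and lost, so shares of different genes are descriptions.

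**Figure D4:**
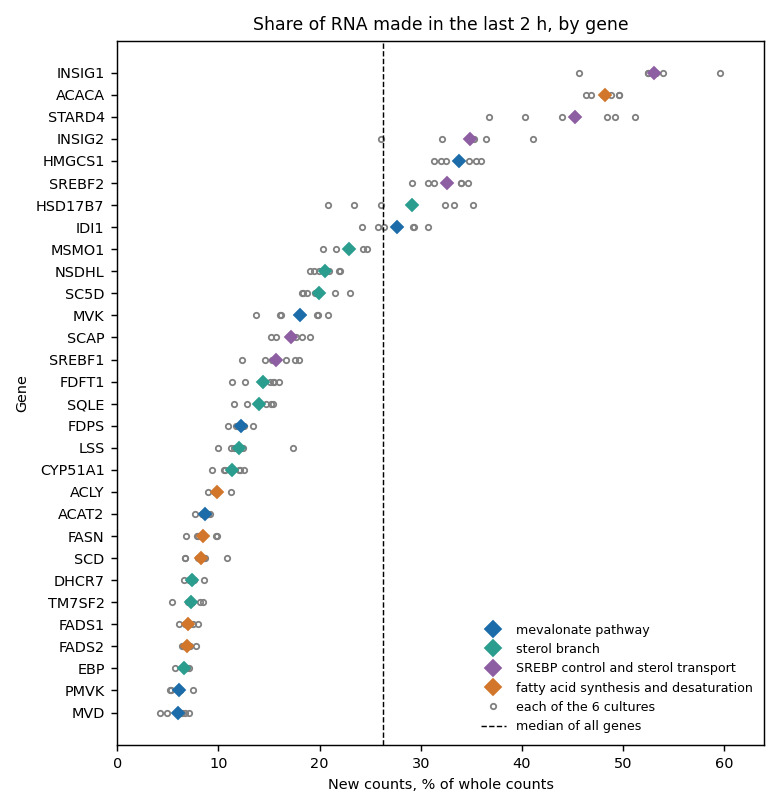
New counts as a percentage of whole counts for each of the 30 genes, ordered by the pooled value; diamonds are all 6 cultures together, coloured by role, and open circles each culture. The dashed line is the median of 26.3% over genes with at least 1000 whole counts, and 8 genes lie to its right.

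The 8 genes above that median were INSIG1 (53.1%), ACACA (48.3%), STARD4 (45.3%), INSIG2 (34.9%), HMGCS1 (33.8%), SREBF2 (32.6%), HSD17B7 (29.1%) and IDI1 (27.7%). SREBF1 stood lower, at 15.7%, below the other 5 sensing and transport genes. Within the mevalonate pathway the 2 highest were thus HMGCS1, its first committed synthase, and IDI1, while PMVK (6.09%) and MVD were lowest of the 30. Within the fatty acid genes, ACACA stood apart from the other 5, which ran from 6.90 to 9.87%.

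The share of SCD was 10.9% at 0 h (exact 95% interval 9.98 to 11.8%) and 6.64, 6.65, 8.54, 8.66 and 8.00% at 2 to 10 h, so all treated cultures were lower. INSIG1 was at 59.7% at 0 h and at 45.6, 53.3, 52.5, 54.0 and 52.5%. For STARD4 the share was 36.7% at 0 h and then 40.3, 48.4, 49.2, 51.2 and 44.0%. These are single cultures, and intervals of counts cover counting error only.

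The mixture gave the same measure with a 6 h label in other lines. In HEK293T all 30 genes were matched by identifier, 26 of them with at least 100 whole counts in labelled cells, and the median share was 47.0% beside 72.0% over 9580 genes. In NIH/3T3 28 were matched by symbol, 19 with enough counts, and the median was 50.7% beside 50.4% over 5080 genes. In cells treated with iodoacetamide but not labelled, the 30 genes together had a new share of 1.20% in HEK293T and 1.13% in NIH/3T3, which is the background of the call.

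In HEK293T, INSIG1 was at 88.4% (exact 95% interval 85.3 to 91.1%) and MSMO1 also at 88.4% (84.4 to 91.6%), within counting error of each other. INSIG2 was at 87.0%, HMGCS1 and IDI1 at 81.3%, SQLE at 73.3%, SC5D at 71.8% and ACACA at 70.5%. FASN (19.7%, 17.4 to 22.2%) and TM7SF2 (19.9%, 14.7 to 26.0%) were lowest, within counting error of each other. Next came PMVK at 24.0%, ACLY at 27.6%, FADS1 at 31.2%, EBP at 31.9%, MVD at 32.3% and SCD at 33.4%. In NIH/3T3, SC5D was highest at 65.0% and EBP lowest at 23.2%, among genes with at least 100 whole counts. Between them, HMGCS1 was at 56.4%, INSIG1 at 58.1%, STARD4 at 57.5% and FASN at 41.2%. Across genes, the A549 share correlated with that of HEK293T with Pearson's r of 0.80 and Spearman's rho of 0.86 (26 genes), and with that of NIH/3T3 with r of 0.67 and rho of 0.72 (19 genes). Genes are not independent replicates, the same call of new reads underlies every value, and the label times differ, so these are descriptions.

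Across single cells within a culture, each gene's counts were set beside the summed counts of the mevalonate and sterol branch genes other than itself, after thinning every cell to 10000 counts (7231 cells; 173 shallower cells were left out). The correlations were weak in size. The highest medians over the 6 cultures were 0.22 for IDI1 and HMGCS1, 0.21 for SQLE and 0.20 for MSMO1, and the median over the 30 genes and cultures was 0.097. The lowest was SREBF1, at -0.038. Over the 11357 to 11359 other genes whose mean count lay within the range of the 30, the median r was -0.0028 to -0.00074 in the 6 cultures. Of the 30 genes, 23 had a higher r than 95% of those genes, taking the median over cultures; genes were not matched singly on level, and r can depend on level. Counts of these genes in a cell are sparse, so no order among genes is read from them.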

How the data were processed

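Single-cell counts of whole and new RNA were used as the authors deposited them; a count is a whole number per gene and cell. The submitters' processing notes name builds hg19 and mm10, STAR 2.5.2b, Picard 1.105, Trim Galore 0.4.1 and SAMtools 1.3. No source used here states settings, strand, duplicate collapsing or the rule for new molecules. Treatment times, labelling groups and a doublet score per cell come from the deposited cell tables, which also hold a read fraction per cell, not used here. No doublet caller was run. The 2 samples shared 0 cell names (664 barcodes without the prefix), and none of 378 second barcodes occurred at more than 1 time.

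Counts were summed per time, filtered (filterByExpr, minimum count 10) and tested with edgeR 4.0.16 (TMM, quasi-likelihood, Benjamini-Hochberg over all genes, threshold 0.05) in R 4.3.3; DESeq2 1.42.0 was an alternative. Fits against 0 h had 4 residual degrees of freedom and slopes 3. The SE given with edgeR values was derived from the test. It is the absolute log2 fold change or slope divided by the square root of the quasi-likelihood F statistic. Scripts were tested on simulated counts. Nothing in the labels pairs or repeats cultures, so p-values measure only the spread between these cultures. Shares carry exact Clopper-Pearson 95% intervals, ratios to 0 h counting intervals. Alternatives were RLE scaling, no low-count filter, cells with a doublet score under 0.1 and leaving out each treated culture. Named are all 30 genes and, of 57 neighbours, the 10 with the largest fold in new RNA among those past the threshold in the first 5 tests. Genes and lists were chosen with earlier results of these data known. Promoter sequences were not used here.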

Additional observations from a re-analysis of the deposited data

Results flagged for a closer look

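Of 60 sets of 5 treated cultures examined (30 genes, new and whole RNA), 2 held a culture far from the other 4 by Dixon's 95% critical value of 0.71, where chance gives about 5%. Whole MVK RNA was 11.6 CPM in the 10 h culture and 8.15 to 8.64 in the other treated cultures. Whole ACACA RNA was 207.7 CPM in the 2 h culture and 198.1 to 200.6 in the others.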

How the results depend on the processing

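No called gene changed direction under any alternative; 80 sign changes occurred, all in results without a call in any setting. With DESeq2, 1 of the 30 genes rose in whole RNA, 1 fell in new RNA and 0 had a rising slope in new RNA. In cells with a low doublet score 0 rose in new RNA, and with no low-count filter 2 rose and 2 fell in the slope of new RNA. Leaving out 1 treated culture gave 0 to 1 genes that rose against 0 h in whole RNA, 0 to 1 that rose and 1 to 4 that fell in new RNA, and 0 to 1 that rose in pre-existing RNA. It gave 1 to 7 rising and 1 to 3 falling slopes in whole RNA, and 0 to 1 rising and 0 to 2 falling in new RNA. Counts over all genes moved as well: in new RNA 669 rose and 381 fell, 1176 and 846 without the 2 h culture, and 428 and 201 without the 6 h culture. In whole RNA 138 rose and 63 fell, 931 and 669 without the 2 h culture and 560 and 232 with DESeq2. Leaving out 1 treated culture gave 713 to 1265 rising and 701 to 1304 falling slopes over all genes in whole RNA, beside 1311 and 1404. In new RNA it gave 225 to 538 and 281 to 630, beside 581 and 680. With no low-count filter, 820 rose and 892 fell in the slope of new RNA. In pre-existing RNA 11 rose and 13 fell, and 463 and 304 without the 2 h culture. Calls there were rarer without any other treated culture. The cause was not tested. Without thinning, on CPM values, the median correlation across cells was 0.1635. Low depth limits MVD, MVK, TM7SF2 and HSD17B7, with under 100 new counts in every culture. Promoter motifs were not run. No paired analysis was possible because each time has 1 culture with no replicate number.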
